A study of Mus musculus with 28 samples.

Results

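Gene expression of Arc amacrine cells of the mouse retina was compared across postnatal day 10 (P10). The comparison set the 5 Arc arrays of P6 to P9 (2 at P6 and 1 each at P7, P8 and P9) against the 4 Arc arrays of P10 to P13, chosen by the age and cell type in the labels. These 9 arrays belong to a series of 28, of which 22 hold Arc amacrine cells and 6 starburst amacrine cells. All 9 samples came from the line Tg(Arc-EGFP)194Gsat/Mmcd, in which an Arc transgene drives EGFP, so that the cells are those in which this transgene was bright enough to pass the sorter's gate. The labels give a mixed background, the F2 generation of a cross of FVB/N-Swiss Webster hybrid mice into C57BL/6J, and state that the parent stock carries a recessive mutation that leads to loss of photoreceptors. Whether a given animal carried it is not given in the sources used here. The labels name no treatment. They carry a batch entry that is not explained, "A and B" for P7 to P13, "A and B of 2" for P6 replicate 1 and "A and B of 1" for P6 replicate 2. Apart from these P6 entries, the labels of the windows differ in age alone.

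Each sample was total RNA of 200 sorted cells, from 1 retina per the series' design text. That text speaks of triplicates, whereas the values used here hold 1 array per day and 2 at P6, so that neighbouring days stand in for replicates. The p-values below therefore rest on the spread between days and arrays of a window. A step at P10 and a steady change with age cannot be told apart by this comparison. Values are log2 expression from arrays normalized by the authors, and a difference of 1 is a 2-fold change. Array medians lay between 3.46 and 3.55. Pearson correlations across genes were 0.974 to 0.981 for the 10 pairs of arrays within P6 to P9, 0.978 to 0.984 for the 6 pairs within P10 to P13, and 0.961 to 0.977 for the 20 pairs between the windows. The P6 arrays correlated with each other at 0.974, at the low end of the pairs within a window.

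Amacrine cells are the inhibitory interneurons of the inner retina. They release GABA or glycine onto bipolar, ganglion and other amacrine cells. In the mouse they are born before birth and in the first days after it, grow their processes into the inner plexiform layer, and form most of their synapses there before the eyes open. A neuron that matures in this way usually reduces growth cone and migration proteins and builds up vesicle release machinery, ion pumps and the enzymes that supply them with energy.

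The sorted cells were checked against amacrine markers first. Of 12 measured pan-amacrine genes, 11 had a mean over the 9 arrays above background, here 3.68, the 95th percentile of the 708 olfactory receptor genes over the 9 arrays. Tfap2b, a transcription factor of amacrine cells, was the brightest of them, with a mean of 9.64 ± 0.11 (SD, n = 5) at P6 to P9 and 9.33 ± 0.08 (SD, n = 4) at P10 to P13. Pax6, the eye field transcription factor, stood at 9.13 ± 0.05 (SD, n = 5) and 8.96 ± 0.07 (SD, n = 4), and Slc32a1, the vesicular transporter for GABA and glycine, at 6.80 ± 0.13 (SD, n = 5) and 6.91 ± 0.11 (SD, n = 4). None of the 12 genes passed the test for a change between the windows. In 3 of the 12 all later arrays lay below all earlier ones and in 1 above, against 2.91% and 3.95% of all genes. Under some alternatives, such as cyclic loess scaling or a filter on dim genes, 1 gene was called lower. With age as a number in place of the windows, 1 was called higher. Among 8 measured starburst amacrine genes 1, Fezf2, lay above background, at 4.15 ± 0.24 (SD, n = 5) and 3.66 ± 0.21 (SD, n = 4), while Chat, the enzyme that makes acetylcholine, stood at 2.91 ± 0.10 (SD, n = 5) and 2.79 ± 0.05 (SD, n = 4). Arc itself, an immediate early gene, had a mean of 5.92 ± 0.19 (SD, n = 5) and 5.65 ± 0.14 (SD, n = 4), a difference of -0.28 ± 0.12 (SE) at adjusted p = 0.278.

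Between P6 to P9 and P10 to P13, some genes of glycolysis, synaptic vesicle release, chloride and glycine handling and cholesterol synthesis rose. Some genes of young neurons, Dcx, Sox4 and Tubb2b, were among those that fell, as was Crabp1. Of 13617 genes tested with limma, 250 passed an adjusted p of 0.05 (1.84%), 185 of them higher (1.36%) and 65 lower (0.477%) at P10 to P13. A change of at least 2-fold was found for 37 of the higher and 7 of the lower genes. All 4 later arrays lay above all 5 earlier ones for 538 genes (3.95% of those tested) and below them for 396 (2.91%). In 245 of the 250 called genes the windows did not overlap. The median change of all genes was -0.02. The share called in each list below stands beside 1.84% of all genes. That share is a low standard for lists whose genes mostly lie above background, as 6185 of all 13617 genes did. Such lists included synaptic vesicles and release (33 of 36 above background), growth cone (23 of 23), calcium sensors (24 of 29) and potassium channels (19 of 27). With dim genes filtered out, 446 of 6185 genes were called.

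These counts rest on few arrays. They came to 68 genes without the P12 array, 73 without P13, 113 without P6 replicate 1, 115 without P8 and 134 without P7. The balance of higher and lower genes moved with the scaling, from 185 and 65 (74% higher) as deposited to 143 and 81 (63.8% higher) after quantile normalization.

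**Figure D1:**
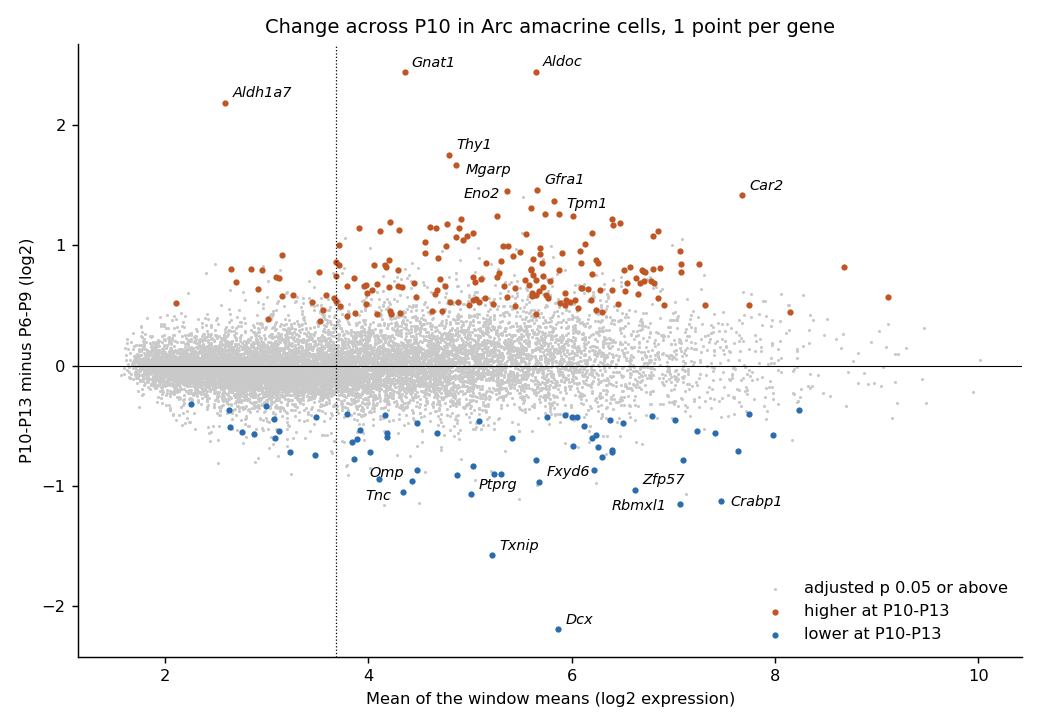
Difference of the window means, P10 to P13 minus P6 to P9 (log2, vertical axis), against the mean of both window means (log2, horizontal axis), 1 point per gene, with genes past the threshold in orange (185 higher) and blue (65 lower) and the background of 3.68 as a dotted line. Aldoc and Gnat1 are the highest points with a change of 2.44, and Dcx is the lowest with -2.19.

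Enzymes of glucose breakdown were among the genes that rose. Of 26 measured genes of glycolysis and central carbon metabolism 6 were higher (Aldoc, Eno2, Got1, Tpi1, Aldoa and Pfkm), none was lower, and 20 did not pass. The median change of the list was 0.37, beside -0.02 over all genes, and in 10 of the 26 genes all later arrays lay above all earlier ones, against 3.95% of all genes. Of the 26 genes 23 lay above background, against 6185 of all 13617, so that the share of all genes is a low standard for this list. The list had between 3 and 7 called genes when 1 array at a time was left out, with 3 without P12 or P13.

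Aldoc, the brain form of fructose-bisphosphate aldolase (transcript cluster 6782694), measured 3.74 and 4.56 in P6 replicates 1 and 2, 4.32 at P7, 4.28 at P8 and 5.24 at P9. It then measured 6.22 at P10, 6.56 at P11, 7.0 at P12 and 7.70 at P13. The windows did not overlap, and the level was higher on each day from P9 to P13 than on the day before. The change was 2.44 ± 0.32 (SE), a 5.44-fold rise, at adjusted p = 0.00609. Aldoc is also a marker of astrocytes, and of the other 4 measured astrocyte genes none passed the test. Gfap stood below background in both windows, at 2.62 ± 0.20 (SD, n = 5) and 2.56 ± 0.17 (SD, n = 4), as did Aldh1l1, at 3.05 ± 0.05 (SD, n = 5) and 3.06 ± 0.13 (SD, n = 4).

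Eno2, the neuronal enolase (6957125), lay within 4.56 and 4.76 in all 5 arrays of P6 to P9. It was 5.46 at P10, 5.84 at P11, 6.48 at P12 and 6.57 at P13, so that the later window was both higher and more spread. Its change was 1.45 ± 0.20 (SE), or 2.73-fold, at adjusted p = 0.00883. Tpi1, triose phosphate isomerase, measured 5.85 to 6.51 in the earlier window and 7.22, 7.31, 7.40 and 7.43 in the later one, a step of 1.07 ± 0.13 (SE) at adjusted p = 0.00586. The later arrays of Tpi1 lay close together and above all earlier ones, while the earlier window held a move from 5.85 at P8 to 6.51 at P9, nearly as large as that from P9 to P10.

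Got1, the cytosolic aspartate transaminase of the malate-aspartate shuttle, rose by 1.18 ± 0.22 (SE) from 5.89 ± 0.43 (SD, n = 5) to 7.07 ± 0.33 (SD, n = 4) at adjusted p = 0.0252. Aldoa, the aldolase found in most tissues, rose by 0.82 from a mean of 8.27, and Pfkm, a phosphofructokinase, by 0.64 from 5.77, at adjusted p = 0.0424 and 0.0464. Aldoc, Eno2 and Tpi1 kept their calls without any 1 of the 9 arrays. Got1 lost it without P12 or P13, and Aldoa and Pfkm without any 1 of 7 and 8 arrays (adjusted p of 0.141 at most). Txnip, an inhibitor of glucose uptake and of thioredoxin, went the other way and is described with the lower genes.

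Of 27 measured oxidative phosphorylation genes, all had a positive difference, with a median of 0.27. Cox4i1, a subunit of cytochrome c oxidase, was the 1 gene to pass, with a rise of 0.55 ± 0.10 (SE) at adjusted p = 0.0289. Without any 1 of 6 arrays it was not called. Sdha, a subunit of succinate dehydrogenase, had 0.53 at adjusted p = 0.0529. Mgarp, a mitochondrial protein that takes part in moving mitochondria along neurites (6904972), is not on that list. It measured 3.36 and 4.16 at P6, 3.99 at P7, 3.94 at P8, 4.72 at P9 and 5.41, 5.46, 5.82 and 6.11 at P10 to P13. The windows were apart and P9 was the highest of the earlier arrays. Its change was 1.67 ± 0.23 (SE), or 3.17-fold, at adjusted p = 0.00902.

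Of 36 measured genes of synaptic vesicles and membrane fusion 9 were higher (25%) and none lower, and 27 did not pass. The list's median change was 0.35, and in 14 of its genes all later arrays lay above all earlier ones, in 1 below. The count of 9 was 1 without P12, 1 without P13, 3 without P6 replicate 1, and 4 without P7 or P8. The list's median stayed between 0.32 and 0.39 when 1 array was left out.

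Synpr, the vesicle membrane protein synaptoporin (6817033), measured 3.91 and 5.01 at P6, 4.46 at P7, 4.94 at P8 and 4.89 at P9, then 5.74, 5.83, 6.00 and 5.97. The P6 arrays differed from each other by more than P10 differed from P9, and the later window was tight. The change was 1.24 ± 0.20 (SE) at adjusted p = 0.0143. Nsf, the ATPase that takes used SNARE complexes apart, lay between 6.06 and 6.43 in the earlier arrays and measured 6.99, 6.98, 6.94 and 7.44 in the later ones. It rose by 0.79 ± 0.12 (SE) at adjusted p = 0.0117, and was the 1 gene of these 9 whose call held without each array in turn.

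The 7 other genes cover the cycle from vesicle to membrane. Syn2, a synapsin that tethers vesicles, rose by 1.10 ± 0.20 (SE), Sv2a, a vesicle glycoprotein, by 0.85 and Rab3a, a vesicle GTPase, by 0.76. The SNARE proteins Snap25 and Vamp2 rose by 0.58 and 0.56, Napb, a cofactor of Nsf, by 0.81, and Dnm1, the dynamin of vesicle retrieval, by 0.78. Their adjusted p lay between 0.0257 and 0.0475 and the windows did not overlap for any of them. Snap25 was already among the brighter genes at P6 to P9, at 8.83 ± 0.23 (SD, n = 5), and reached 9.40 ± 0.20 (SD, n = 4).

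Not all release genes had large differences. The calcium sensor Syt1 had 0.05 at adjusted p = 0.868, Stx1a, a syntaxin of the plasma membrane, 0.04 at adjusted p = 0.939, and the active zone genes Rims1 and Rims2 -0.24 and -0.21 at adjusted p = 0.266 and 0.394. Syp, synaptophysin, had 0.63 at adjusted p = 0.0512, and was not called.

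Of 24 measured genes of GABA and glycine signalling 3 were higher (Slc12a5, Glrb and Slc6a5, 12.5% of the list), none lower, and the median change was 0.09. Slc12a5, the potassium chloride cotransporter KCC2 that lowers chloride in mature neurons, measured 5.98 and 6.24 at P6, 5.96 at P7, 6.37 at P8 and 6.25 at P9. In the later window it measured 6.69, 6.95, 7.18 and 7.12, with no overlap. It rose by 0.82 ± 0.13 (SE), or 1.77-fold, at adjusted p = 0.011. Slc12a2, the cotransporter that brings chloride into cells, was below background in both windows.

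Glrb, the beta subunit of the glycine receptor, measured 4.74 to 5.26 in the earlier arrays and 5.76, 5.77, 6.21 and 6.14 in the later ones, a rise of 0.94 ± 0.14 (SE) at adjusted p = 0.0106. The alpha subunits Glra1, Glra2, Glra3 and Glra4 were not called, and of these Glra2 alone lay above background, at 5.69 ± 0.20 (SD, n = 5) and 5.70 ± 0.05 (SD, n = 4). Slc6a5, the neuronal glycine transporter GlyT2, rose by 1.00 ± 0.22 (SE) at adjusted p = 0.0474, from 3.68 in P6 replicate 1 to 5.71 at P13. Its call was lost without any 1 of 8 arrays. Gad1, which makes GABA, had 0.59 at adjusted p = 0.14, and Gabrb2, a subunit of the GABA-A receptor, 0.52 at adjusted p = 0.321. Slc12a5 and Glrb kept their calls without each array in turn.

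**Figure D2:**
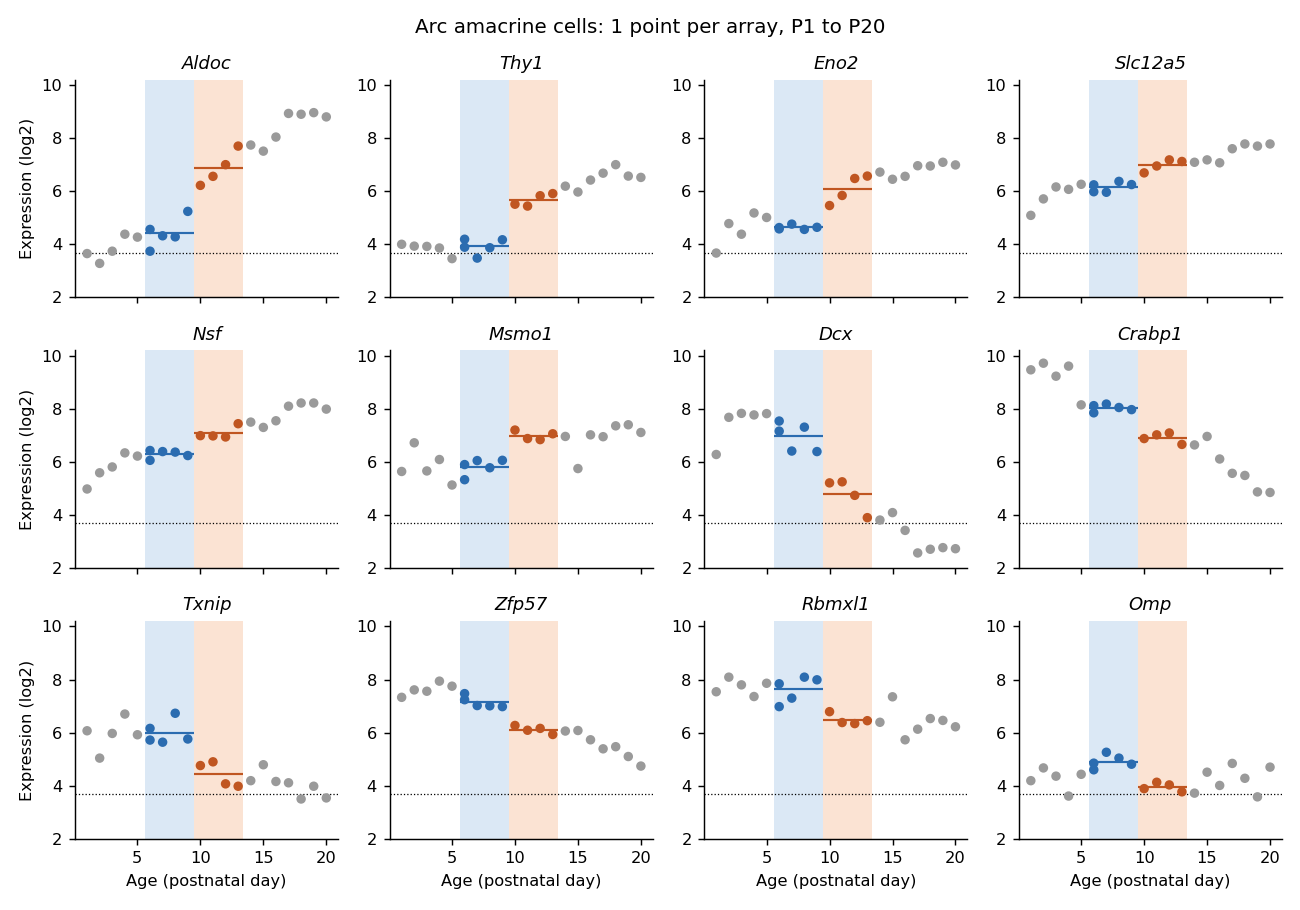
Log2 expression (vertical axis) against age in days (horizontal axis) for 12 genes in the 21 Arc arrays of P1 to P20, 1 point per array, with P6 to P9 in blue, P10 to P13 in orange, window means as lines, other days in grey and the background of 3.68 dotted. Slc12a5 and Nsf lie higher in every orange point than in every blue one, and Dcx, Crabp1 and Zfp57 lie lower in every orange point.

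Among 29 measured calcium sensors, buffers and kinases 5 were called higher (17.2%) and none lower, with a median of 0.15. In 9 genes all later arrays lay above all earlier ones and in 3 below, against 3.95% and 2.91% of all genes. Slc24a2, an exchanger of sodium, calcium and potassium that is also expressed in cones, measured 3.31 and 3.77 at P6, 3.73, 4.01 and 3.91 at P7 to P9 and 4.77, 4.71, 4.74 and 5.25 at P10 to P13. The step was 1.13 ± 0.16 (SE) at adjusted p = 0.00902. Camkv, a kinase-like protein of synapses, rose by 1.24 ± 0.20 (SE) at adjusted p = 0.0128, and Ncald, the calcium sensor neurocalcin delta, by 0.63 ± 0.10 (SE) at adjusted p = 0.0108 from a mean of 3.72, close to background. Atp2b2, a plasma membrane calcium pump, and Prkcb, a protein kinase C, rose by 0.62 and 0.72, at adjusted p = 0.0428 and 0.0468, and both lost their calls without any 1 of 8 arrays. Slc24a2 and Ncald kept the call without each array in turn, while Camkv lost it without P13 (adjusted p = 0.0515). The list had between 2 and 6 called genes when 1 array was left out, and fewest without P13.

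Of 27 potassium channel genes 2 were called (7.41%, beside 1.84% of all genes), both higher. Kcnn3, a calcium-activated channel, rose by 0.89 and Kcnab2, an auxiliary subunit, by 0.58, at adjusted p = 0.0319 and 0.0468. These calls were lost without any 1 of 7 and 8 arrays, and the list had none without P7, P12 or P13. None of 20 sodium, calcium and HCN channel genes passed, which is common for a list of this size, and their median change was 0.09. Among 25 glutamate receptor and scaffold genes Dlg4, the postsynaptic scaffold PSD-95, rose by 0.51 and Grik2, a kainate receptor subunit, fell by 0.70, both at adjusted p = 0.0333. Their calls were lost without any 1 of 8 and 7 arrays (adjusted p of 0.115 at most).

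Of 14 measured genes of cholesterol synthesis and uptake 4 were higher (Msmo1, Fdft1, Sqle and Sc5d) and none lower, and the median change was 0.19. Msmo1, the sterol C4 methyl oxidase, lay between 5.33 and 6.06 in the earlier arrays and at 7.20, 6.88, 6.84 and 7.06 in the later ones. It rose by 1.17 ± 0.15 (SE), or 2.25-fold, at adjusted p = 0.00609, and kept its call without each array in turn. Fdft1, squalene synthase, rose by 1.10 ± 0.21 (SE), Sqle, squalene epoxidase, by 0.75 ± 0.15 (SE) and Sc5d, sterol C5 desaturase, by 0.60 ± 0.13 (SE), at adjusted p from 0.0293 to 0.0475.

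Sqle was highest at P10 (6.45) and lowest of the later arrays at P13 (5.76), so that these enzymes did not all climb through the later window. The other 10 genes, from early and late steps, were not called. Mvk and Mvd of the mevalonate pathway had differences of 0.01 and 0.05, at adjusted p = 0.982 and 0.865. Lss, which closes the sterol rings, had 0.08 and Dhcr7, the last enzyme, -0.05. The list had 1 called gene without P6 replicate 1, without P10 and without P12, 2 after quantile normalization, and 1 to 3 over all 9 arrays left out in turn.

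Genes of this pathway are controlled together by SREBP factors, which act beside NF-Y, a factor that binds the CCAAT box. The RefSeq promoter table (GRCm38.p6) held an entry for Msmo1 and for Sc5d among the 4 called genes. The 250 bases before their starts are shown in their transcribed direction, since both genes rose in this comparison, with each CCAAT box (CCAAT, either strand) in capitals. The window lies at chr8:64733579-64733828 on the minus strand for Msmo1 and at chr9:42264301-42264550 on the minus strand for Sc5d.
Msmo1: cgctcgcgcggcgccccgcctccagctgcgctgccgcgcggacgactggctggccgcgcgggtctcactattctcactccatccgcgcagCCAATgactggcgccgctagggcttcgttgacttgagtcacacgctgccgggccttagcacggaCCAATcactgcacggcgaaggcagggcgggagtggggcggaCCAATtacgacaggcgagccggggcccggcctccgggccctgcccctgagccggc
Sc5d: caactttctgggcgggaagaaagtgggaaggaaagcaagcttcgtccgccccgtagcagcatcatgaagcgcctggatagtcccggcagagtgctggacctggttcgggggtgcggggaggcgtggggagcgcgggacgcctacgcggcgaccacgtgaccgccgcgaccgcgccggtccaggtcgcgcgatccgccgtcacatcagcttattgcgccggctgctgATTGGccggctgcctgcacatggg
The Msmo1 window held 3 CCAAT boxes on the strand shown, 155, 91 and 50 bases before the start, and the Sc5d window held 1 on the opposite strand, 19 bases before it. Of all 32851 promoter windows of this length in the table, 33.8% held at least 1 such match, so a match alone describes these letters and no binding.

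Surface, cytoskeletal and signalling genes were also among the 12 highest changes. Thy1, a surface glycoprotein of neurons (6988603), measured 3.89 and 4.19 at P6, 3.48 at P7, 3.87 at P8 and 4.17 at P9, then 5.51, 5.44, 5.83 and 5.91. The gap between the windows was wider than the range within either of them. Its change was 1.75 ± 0.16 (SE), or 3.37-fold, at adjusted p = 0.00203, the lowest adjusted p in the comparison, shared with other genes. Gfra1, a coreceptor for the growth factor GDNF, measured 4.08 to 5.49 in the earlier and 6.12 to 6.61 in the later arrays, a rise of 1.46 ± 0.23 (SE) at adjusted p = 0.013.

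Car2, carbonic anhydrase 2, went from 6.97 ± 0.39 (SD, n = 5) to 8.39 ± 0.23 (SD, n = 4), a rise of 1.42 ± 0.19 (SE) at adjusted p = 0.00609. Faim2, an inhibitor of Fas-induced cell death, rose by 1.37 ± 0.20 (SE) at adjusted p = 0.0102, with 6.06 and 6.07 at P10 and P11 and 6.83 and 7.08 at P12 and P13. Tpm1, a tropomyosin of actin filaments, measured 4.94 to 5.41 in the earlier window and 6.20, 6.58, 6.60 and 6.63 in the later one, a rise of 1.26 ± 0.13 (SE) at adjusted p = 0.00203. For Tpm1 the P10 value was the lowest of the later window and still above all earlier ones. Plekhb2, a lipid-binding protein of recycling endosomes, rose by 1.26 ± 0.18 (SE) at adjusted p = 0.0101.

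Olfm3, a secreted olfactomedin, was more variable, with 4.26 and 5.75 in the P6 arrays and 6.02 to 6.67 at P10 to P13. Its change of 1.31 ± 0.27 (SE) at adjusted p = 0.0333 was lost without any 1 of 6 arrays, and that of Gfra1 or Synpr without P12 or P13 (adjusted p up to 0.0575). The other named genes of these paragraphs kept their calls without each array in turn. Sparcl1, a secreted protein of the SPARC family, rose by 1.22 ± 0.18 (SE) from 5.79 ± 0.40 (SD, n = 5) to 7.01 ± 0.17 (SD, n = 4) at adjusted p = 0.0106. Chga, the dense core vesicle protein chromogranin A, rose by 0.96 ± 0.14 (SE) at adjusted p = 0.0104, and Rit2, a Ras-like GTPase of neurons, by 0.87 ± 0.13 (SE) at adjusted p = 0.0108.

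The genes that fell included some of young neurons. Dcx, the lowest change among the called genes, which stabilises microtubules in migrating neurons (7019970), measured 7.54 and 7.16 at P6, 6.41 at P7, 7.31 at P8 and 6.39 at P9. It then measured 5.21, 5.25, 4.74 and 3.90 at P10 to P13, close to background at the end. The windows did not overlap, and the level fell by 2.19 ± 0.31 (SE) on the log2 scale, to 0.22 of the earlier level, at adjusted p = 0.00902. Of 23 measured growth cone and microtubule genes 2 fell (8.7%), none rose, and the median change was -0.16.

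Tubb2b, a beta tubulin of growing axons, was the other, and fell by 0.87 ± 0.16 (SE) at adjusted p = 0.024, a call lost without any 1 of 4 arrays. Its near-identical copy Tubb2a had a difference of 0.97 at adjusted p = 0.225, and the probes may share signal. Gap43, a growth cone protein, had -0.22 at adjusted p = 0.669, Stmn2 -0.59 at adjusted p = 0.389 and Dpysl3 -1.06 at adjusted p = 0.0515. Stmn3 went the other way, with 0.45 at adjusted p = 0.0616. Of the 23 genes 7 had a positive difference. In 2 all later arrays lay above all earlier ones, and in 5 below.

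Sox4, which acts on transcription in differentiating neurons, fell by 0.90 ± 0.17 (SE) at adjusted p = 0.028, from 5.76 ± 0.37 (SD, n = 5) to 4.86 ± 0.13 (SD, n = 4). Zfp57, a zinc finger protein of genomic imprinting (6850268), measured 7.47 and 7.24 at P6, 7.02, 7.01 and 6.98 at P7 to P9 and 6.27, 6.09, 6.16 and 5.93 at P10 to P13. From P7 to P9 its level was flat, and from P9 to P10 the difference was -0.71. Between the window means, which include the higher P6 values, it fell by 1.03 ± 0.12 (SE) at adjusted p = 0.00464. Both belong to a list of 25 genes of immature neurons, mostly transcription factors, of which 2 fell (8%) and none rose. Of the 25 genes 12 lay above background. Crabp1, a carrier of retinoic acid in the cytosol (6989222), lay between 7.85 and 8.18 in the earlier arrays and at 6.88, 7.02, 7.09 and 6.66 in the later ones. It fell by 1.12 ± 0.11 (SE) at adjusted p = 0.00203, and the spread within each window was small beside it.

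Txnip measured 5.72 and 6.16 at P6, 5.64 at P7, 6.73 at P8 and 5.76 at P9, then 4.76, 4.90, 4.07 and 3.98. It fell by 1.57 ± 0.25 (SE), to 0.34 of the earlier level, at adjusted p = 0.0134. Omp, the olfactory marker protein, fell by 0.95 ± 0.14 (SE) at adjusted p = 0.00911, from 4.60 to 5.26 in the earlier arrays to 3.77 to 4.13 in the later ones, near background. Rbmxl1, a copy of the splicing factor gene Rbmx, fell by 1.15 ± 0.21 (SE) at adjusted p = 0.0257. Rbmx itself had -0.54 at adjusted p = 0.0723, and the arrays may not separate these similar genes. Ptbp2, the splicing factor of young neurons, was the 1 called gene of 23 RNA-binding genes, and fell by 0.71 ± 0.11 (SE) from 7.99 ± 0.09 (SD, n = 5) at adjusted p = 0.0116.

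Matrix genes were called both ways. Tnc, tenascin C, had 5.47 and 4.77 at P6, 4.12 at P7, 5.26 at P8 and 4.72 at P9 and lay between 3.71 and 3.88 in the later arrays. It fell by 1.05 ± 0.22 (SE) at adjusted p = 0.0402. Tnr, tenascin R, a component of nets around mature neurons, rose by 0.46 ± 0.10 (SE) at adjusted p = 0.046. It went from below background to 3.79 ± 0.21 (SD, n = 4), so that its rise may be understated. Both calls were lost without any 1 of 8 arrays. With Sparcl1 they were the 3 genes called among 24 of the matrix. Cdh2, N-cadherin, was the 1 called gene of 35 axon guidance and adhesion genes (2.86%, close to the 1.84% of all genes). It fell by 0.71 ± 0.14 (SE) at adjusted p = 0.0333, a call lost without any 1 of 5 arrays.

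The remaining named genes that fell were Ptprg, a receptor tyrosine phosphatase (-1.07 ± 0.20 (SE), adjusted p = 0.0257), and Fxyd6, a modulator of the sodium pump (-0.96 ± 0.18 (SE), adjusted p = 0.0291). Dusp18, a dual-specificity phosphatase, fell by 0.94 ± 0.16 (SE) at adjusted p = 0.0159, its later mean being below background. Snhg5, a host gene of small nucleolar RNAs, fell by 0.90 ± 0.20 (SE) at adjusted p = 0.0457, and was the 1 named gene whose windows overlapped, with 4.88 in P6 replicate 1 and 4.93 at P11. Without 1 array, Dcx, Zfp57, Crabp1, Omp and Ptbp2 kept their calls in all 9 cases. Txnip lost it without P12 or P13, Dusp18 without P12, Sox4, Ptprg and Fxyd6 without any 1 of 4 arrays, Rbmxl1 of 5 and Snhg5 of 7, with adjusted p up to 0.139.

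**Figure D3:**
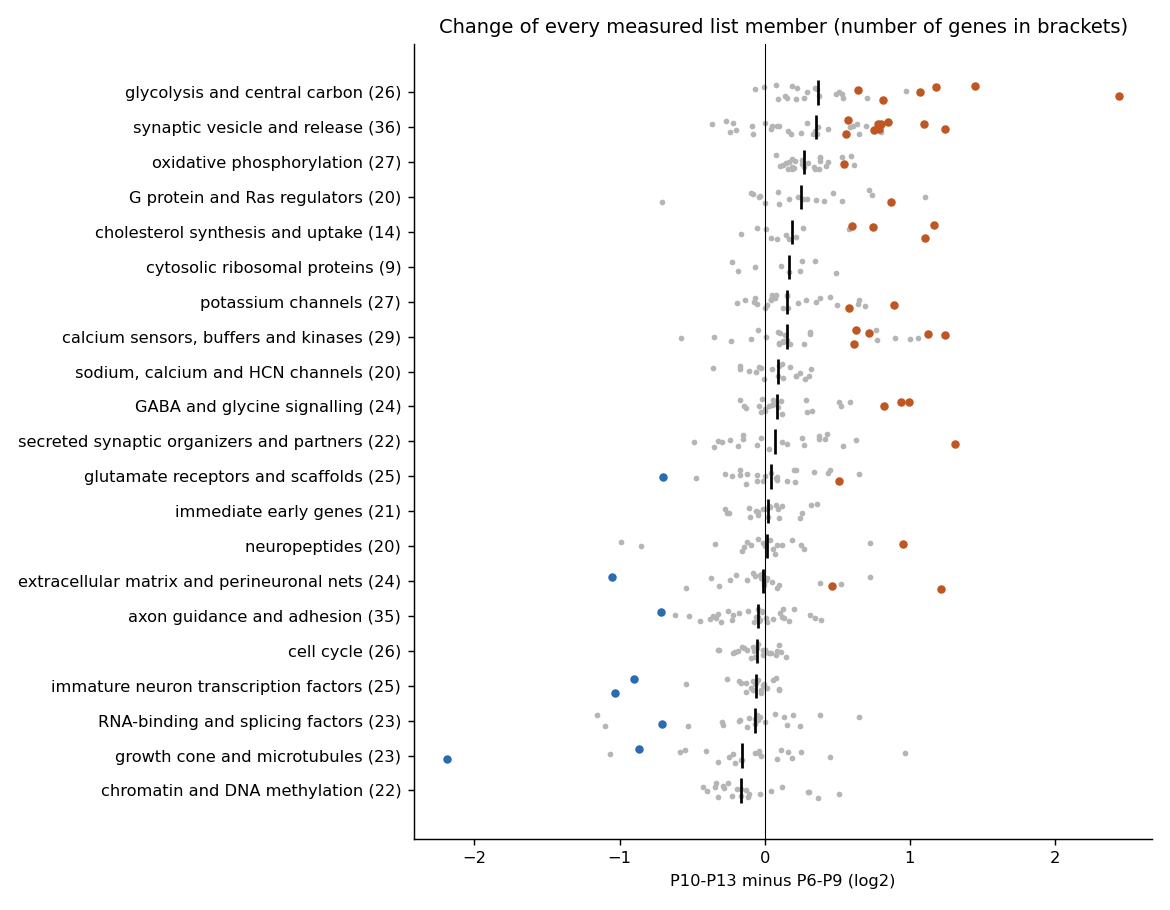
Difference of the window means, P10 to P13 minus P6 to P9 (log2, horizontal axis), for each measured gene of 21 gene lists, ordered by the list's median (black bar), with genes past the threshold in orange (higher) or blue (lower). The glycolysis list has the highest median, 0.37, and chromatin and DNA methylation the lowest, -0.17, with none of its 22 genes past the threshold.

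With 1.84% of all genes called, a short list often holds none, and other lists had no called gene. These were cell cycle (26 genes, median change -0.05), chromatin and DNA methylation (22 genes, -0.17), cytosolic ribosomal proteins (9 genes, 0.17) and immediate early genes (21 genes, 0.02). After cyclic loess 2 chromatin genes were lower, and after quantile normalization 1. The medians of the matrix, cone, Muller glia and pan-amacrine lists lay close to 0 and changed sign with the scaling, so that they have no settled direction.

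Markers of other retinal cells were measured in the same arrays, and some rose in step with the genes above. In a pool of sorted cells, fewer cells of a type and less RNA per cell cannot be told apart. Of 16 measured rod genes 4 were higher (25%) and none lower, with a median change of 0.32, and 5 of the 16 lay above background. The summed level of the list on the linear scale was 591.8 to 690.6 at P6 to P9 and 730.7 to 947.4 at P10 to P13. Gnat1, the alpha subunit of rod transducin, measured 2.66 and 3.16 at P6, 3.06, 3.64 and 3.18 at P7 to P9 and 4.93, 4.36, 5.88 and 7.13 at P10 to P13.

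All earlier Gnat1 values lay below background and the later ones were widely spread. It rose by 2.44 ± 0.44 (SE) at adjusted p = 0.0236, with 1.92 to 2.84 when 1 array was left out. The call was lost without P6 replicate 1 or without P12 (adjusted p up to 0.085). Pde6b, Pde6a and Pde6g, the subunits of the rod phosphodiesterase, rose by 0.73, 0.59 and 0.51, at adjusted p from 0.0182 to 0.0466, the first and second of them below background in both windows. Nrl, the transcription factor that specifies rods, stayed below background, at 2.60 ± 0.07 (SD, n = 5) and 2.78 ± 0.29 (SD, n = 4). Sag, rod arrestin, had 0.62 at adjusted p = 0.102. No rod gene was called without P12.

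Of 15 measured Muller glia genes Car2 and Clu, a secreted chaperone, rose, and 6 lay above background. The list's summed level was 292.2 to 356.3 in the earlier and 506.3 to 661.9 in the later window. Such a sum on the linear scale is weighted to bright genes such as Car2. The list's median change was -0.04, with 6 of 15 differences positive. Glul, glutamine synthetase, had 0.98 at adjusted p = 0.172. Rlbp1 and Aqp4 of the same list stood below background in both windows, Aqp4 at 2.43 in each. Vim had -0.44 at adjusted p = 0.0507. Among 12 ganglion cell genes Thy1 and Nefh, the heavy neurofilament, rose, Nefh by 1.22 ± 0.13 (SE) at adjusted p = 0.00254. The summed level of the 12 genes was 137.2 to 169.6 and 196.6 to 228.2, while their median change was 0.007, with 6 of 12 positive.

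The ganglion cell genes Slc17a6 and Opn4 were below background in both windows, at 2.16 ± 0.13 (SD, n = 5) and 2.18 ± 0.04 (SD, n = 4) for Slc17a6, and Rbpms had -0.08 at adjusted p = 0.771. Of 8 horizontal cell genes Septin4, a septin of the cytoskeleton, rose by 1.15 ± 0.13 (SE) at adjusted p = 0.00269. Onecut1 and Lhx1 of that list stayed below background. No gene of the bipolar (13), microglia (11), endothelial and mural (14), lens and pigment epithelium (12) or starburst (8) lists was called. The summed bipolar level was 155.8 to 204.1 and 193.6 to 258.6, that of amacrine subtype genes 422.1 to 516.5 and 322.7 to 395.8, and that of pan-amacrine genes 2742 to 3114 and 2545 to 2843. The median change of the bipolar list was -0.05, with 5 of 13 differences positive. The part of these markers in the other results was not tested.

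Whether the change at P10 differed from that before and after it was asked in a fit over 4 windows of 4 days each, P2 to P5, P6 to P9, P10 to P13 and P14 to P17, with 17 arrays. In that fit 247 genes passed between P6 to P9 and P10 to P13. The step before gave 0 calls by limma and 750 genes at an unadjusted p under 0.05, and the step after gave 0 and 1237, against 1903 here. Counts on either side of a threshold do not show that the steps differ. The difference between this step and the one before was called for 1 gene (0.00734% of those tested), with 981 at an unadjusted p under 0.05, and the difference from the step after for 1 gene (0.00734%), with 687. Simulated arrays were given independent noise, no drift with age within a window and no change in the neighbouring steps. Recovery in the real arrays may differ. On the simulated data the tests of a difference between steps recovered 8% and 6% of changes of 0.5, and 82% and 80% of changes of 1. The comparison of P10 to P13 with P6 to P9 recovered 69% and 97%. Few calls therefore do not show that the steps were alike.

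The called gene was Aldh1a7, an aldehyde dehydrogenase (6872029), in both cases, which was singled out after its values were seen. It measured 1.10 and 2.29 at P6, 1.18 at P7, 1.32 at P8, 1.63 at P9 and 3.90, 3.26, 3.96 and 3.64 at P10 to P13. All earlier values lay below background and the later mean of 3.69 only just reached it. The fit gave a difference of 3.01 from the preceding step (adjusted p = 0.00274) and of 2.78 from the following step (adjusted p = 0.0178). Its values at P2 to P5 and at P14 to P17 were below background too, so that neither call is read as a difference between the steps. The related gene Aldh1a1 stood at 2.62 in both windows, below background. The difference from the following step was not called without P10, P12, P13 or P15.

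Side by side, the steps of the named genes took several forms, each window mean entering both steps next to it. Aldoc had 0.51, 2.44 and 1.19 in the preceding, present and following step, and Eno2 -0.20, 1.45 and 0.58. Txnip had 0.09, -1.57 and -0.11, and Omp 0.64, -0.95 and 0.31. Crabp1 had -1.15, -1.12 and -0.59, and Sox4 -0.90, -0.90 and -0.51, so that for these 2 genes the present step was no larger than the one before. None of the 24 named genes passed the test of a difference between steps, the lowest adjusted p being 0.115 for Thy1 against the preceding step.

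**Figure D4:**
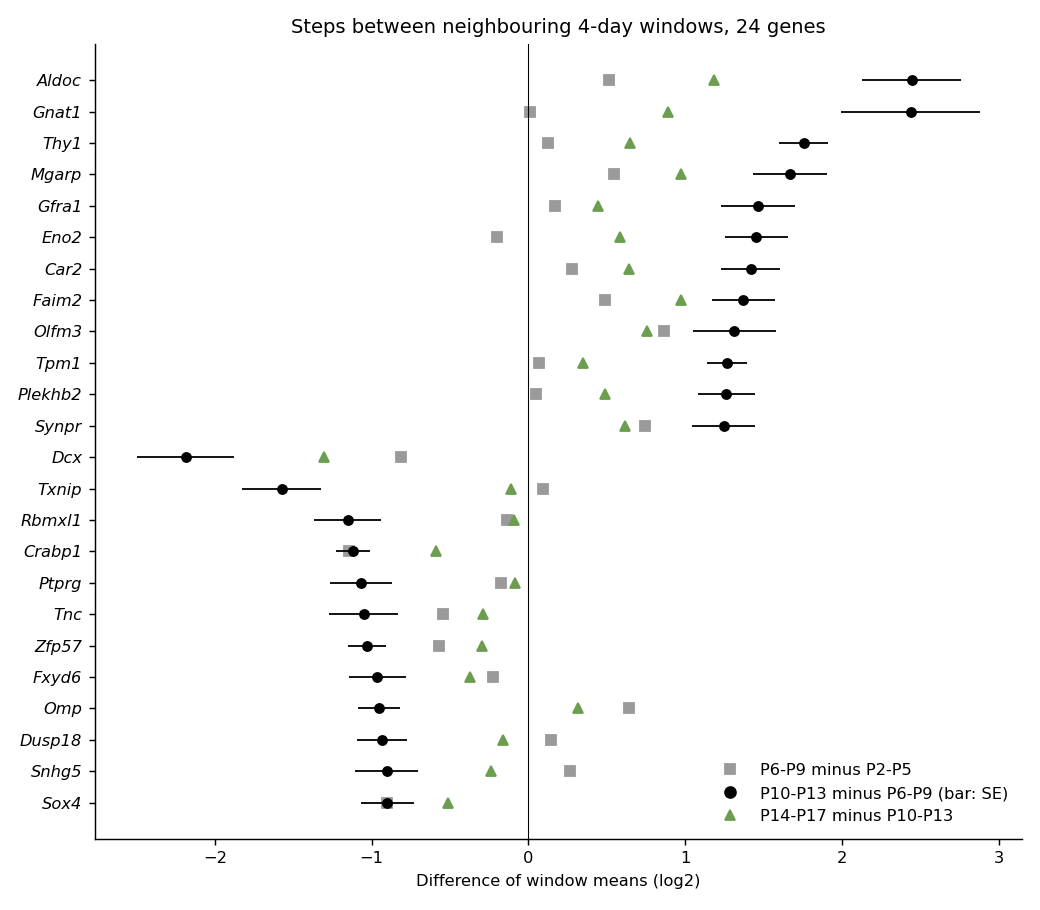
Difference of window means (log2, horizontal axis) for the 12 highest and 12 lowest named genes, with the present step as black points and standard error bars, the preceding step (P6 to P9 minus P2 to P5) as grey squares and the following step (P14 to P17 minus P10 to P13) as green triangles. For Crabp1 and Sox4 the square lies at or beside the black point.

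The day on which the genes moved was read from the daily values, with the P6 arrays averaged. The largest day-to-day change in the direction of the window change fell between P9 and P10 for 20 of the 24 named genes, for 176 of the 250 called genes (124 of 185 higher and 52 of 65 lower) and for 23.1% of all genes. The windows meet at this interval and the same arrays made the calls, so these counts are a description without a test. The change from P9 to P10 was 68.9% of the window change in the median named gene, 104% for Rbmxl1, 97.4% for Crabp1 and 95.8% for Omp, and 34.9% for Sox4 and 40.2% for Aldoc. Without both P9 and P10 the comparison called 151 genes, 118 of them among the 250.

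**Figure D5:**
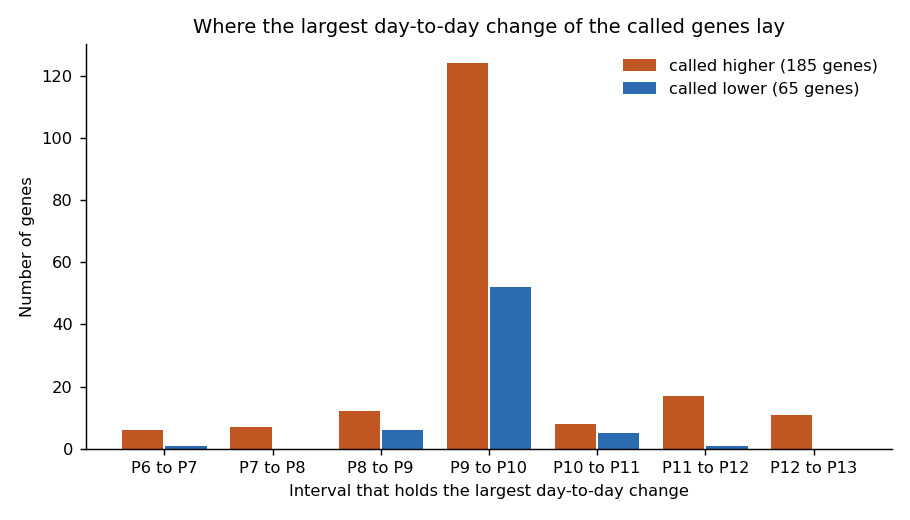
Number of called genes (vertical axis) by the interval between consecutive days that holds their largest change in the direction of the window change, for the 185 higher genes (orange) and the 65 lower genes (blue). The interval from P9 to P10 holds 124 and 52 of them.

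Age within the windows was also put into the fit. With age in days as a covariate beside the window, limma called 0 genes, with 812 at an unadjusted p under 0.05, and with age alone, as a number over the 7 days, it called 361, of which 161 were among the 250. The window and the days within it share most of their information in 9 arrays.

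The arrays also came closer to the 1 Arc array of P43. The Pearson correlation across genes with that array was 0.939 and 0.948 at P6, 0.947 at P7, 0.949 at P8 and 0.956 at P9, and 0.965, 0.966, 0.971 and 0.975 at P10 to P13. The windows did not overlap. Their means were 0.948 ± 0.006 (SD, n = 5) and 0.969 ± 0.005 (SD, n = 4), a difference of 0.0212 with p = 0.00794 in a two-sided exact permutation test, the smallest p that 126 splits allow. The similarity also rose from day to day from P7 to P9 and within the later window. Any steady rise with age would give this p, so the test cannot tell a step at P10 from such a rise. Genes of an array are not independent replicates.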

How the data were processed

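Microarray expression was measured in sorted cells. The deposited values are log2 expression that the authors made with RMA in R 2.11.1, with the mouse build mm8, per the submitters' processing notes. The log base is that of RMA by convention, and which arrays were normalized together is not given in the sources used here. Of 15170 transcript clusters, 13720 had 1 gene symbol in the platform annotation, 869 several and 581 none. Through Entrez identifiers 13699 matched RefSeq. Where several clusters named the same gene (102 genes), the brightest by its mean level stood for it, leaving 13617 genes.

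Windows were compared with limma 3.58.1 in R 4.3.3 (lmFit, eBayes with an intensity trend, two-sided) and Benjamini-Hochberg adjustment over all genes at 0.05, checked on simulated data. Background was the 95th percentile of 708 olfactory receptor genes, and a change may be understated where 1 window mean lies below it. Named genes were the 12 highest and 12 lowest called genes with a mean above the median of all genes (3.51), plus Arc and list members. The windows, members and lists were chosen with earlier results of these data known. Depth has no counterpart on arrays, and the number of arrays limits the precision. Alternatives covered scaling, a filter on dim genes, the intensity trend, array weights, the P6 arrays, age and single arrays left out.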

Additional observations from a re-analysis of the deposited data

Results flagged for a closer look

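In groups of 4 or 5 arrays, 10 of 166 examined had 1 array far from the others, and chance gives about 1 in 20. Tpm1 measured 6.20 at P10 against 6.58 to 6.63 on the other later days. Cdh2 measured 7.25 in P6 replicate 1 against 6.56 to 6.71. At P13, Nsf was 7.44 against 6.94 to 6.99, Slc24a2 5.25 against 4.71 to 4.77, Pde6b 3.87 against 3.36 to 3.39, and Atp6v1g2, a subunit of the vacuolar proton pump, 7.90 against 7.33 to 7.42. Rit2 was 5.36 at P11 against 5.85 to 5.90, and Sc5d was 6.10 at P12 against 5.85 to 5.87. Vdac1, a channel of the mitochondrial outer membrane, stood apart in both windows, with 6.82 in P6 replicate 2 against 6.06 to 6.27 and 6.75 at P11 against 7.09 to 7.12.

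The fitted change of Aldh1a7 at this step exceeded the preceding step by 3.01 and the following step by 2.78. Its levels lay below background in every array of P2 to P9 and of P14 to P17, and its mean at P10 to P13 was at background, so that these values do not measure a difference between the steps.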

How the results depend on the processing

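The count of 250 called genes was 446 (331 higher, 115 lower, 214 of them among the 250) with dim genes filtered out, 151 (122 higher, 29 lower) without P9 and P10, and 0 with age as a covariate. Leaving out 1 array gave 68 to 208. Quantile normalization gave 224, cyclic loess 253, arrays centred on their medians 231, no intensity trend 301, array weights 287, averaged clusters 252, averaged P6 arrays 256, 4 windows in 1 fit 247 and age as a number 361. The differences from the preceding and the following step gave 0 calls with dim genes filtered out, since Aldh1a7 is below that filter, with 547 and 329 genes at an unadjusted p under 0.05 in limma. They gave 1 to 3 and 0 to 2 calls with 1 array left out, 3 without P5 and 2 without P10 for the first, 2 without P14 for the second. The similarity to P43 differed by 0.0124 with Spearman correlations, 0.0603 over genes above the median and 0.0191 to 0.0233 with 1 array left out, with exact permutation p up to 0.0286. For 81 genes, each recomputed under 20 or 21 alternatives, the value kept its direction and side of the threshold in 1238 of these recomputations, lost the call in 456 and changed sign in 3, all 3 with age as a covariate: Slc6a5 (-0.054), Pfkm (-0.074) and Per3 (-0.17), for which the cause was not tested. No paired analysis was possible because the windows share no replicate numbers from the labels, which number the P6 arrays alone.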

Other observations

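Further gene groups moved between the windows, and their lists were chosen after the values were seen, so their counts support nothing beyond these values. Of 20 measured subunits of the vacuolar proton pump, which acidifies synaptic vesicles and lysosomes, 4 rose and none fell, with a median change of 0.26. These were Atp6v1c1 (0.84, adjusted p = 0.00902 by limma), Atp6v0d1 (0.82), Atp6v1g2 (0.84) and Atp6v1e1 (0.70). Of 11 genes of the mitochondrial outer membrane 4 rose, the channels Vdac1 (0.69) and Vdac2 (0.50), the fusion protein Mfn2 (0.56) and Mtch1 (0.55), while Vdac3 had -0.45 at adjusted p = 0.355. Of 13 autophagosome genes Map1lc3a and Map1lc3b, which coat the growing membrane, rose by 0.69 and 0.63.

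Of 14 circadian clock genes 3 passed the test. Hlf, a transcription factor driven by the clock, and Per3, a period gene, each rose by 0.94, at adjusted p = 0.0159 and 0.0424 by limma, and Rorb, a nuclear receptor, fell by 0.40 at adjusted p = 0.0468. Dbp had 0.85, Nr1d2 0.89 and Arntl -0.39, at adjusted p = 0.0648, 0.0507 and 0.0648. Times of day at which retinas were taken are not given in the sources used here. Of these groups, Atp6v1c1 and Atp6v1e1 kept their calls without each array in turn, Atp6v0d1 and Hlf lost them without P12, and the others lost them without any 1 of 5 to 8 arrays.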
